A study of Mus musculus with 12 samples.

Results

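Transcripts of 7 acute phase genes were followed in liver CD45+ cells: the orosomucoids Orm1 and Orm2, the serum amyloid A genes Saa1, Saa2 and Saa3, the lipocalin Lcn2 and haptoglobin, Hp. They are 7 of the 24319 entries of the expression table and were selected on their FPKM levels and fold differences in these same libraries, so both are given as a description without a test. Each was set against Alb, the albumin gene, in the same library. Statistical tests below concern other genes.

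Every mouse was a C57BL/6 animal whose liver had been transfected with human c-Myc and N-ras by hydrodynamic injection on day 0, a rapid large-volume injection that drives plasmid into hepatocytes, so no group was free of the oncogenes. Controls were given PBS with IgG (200 µg). The polyIC group was given polyIC, a synthetic double-stranded RNA, at 4 mg/kg with the same IgG. In the antiPDL1 group PBS was combined with a PD-L1 antibody (200 µg), and the combination group had polyIC and that antibody at the same doses. PBS or polyIC was injected intraperitoneally on days 14, 16, 18, 20 and 22, and IgG or antibody was given on days 17, 19 and 21. The animals were killed on day 24 according to the protocol, although the time point is labelled day 22. Each group had 3 libraries, numbered 0, 1 and 2. The labels do not say that these were separate mice, so p-values measure only the spread between libraries.

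In an acute phase response, cytokines of the IL-6 and IL-1 families act on hepatocytes through STAT3, C/EBP and NF-kappaB factors, and the liver secretes more of the positive acute phase proteins and less albumin and transferrin. Orosomucoids are carriers of small molecules in plasma, Saa1 and Saa2 proteins travel on high-density lipoprotein, and haptoglobin binds free haemoglobin. Not all of these genes are restricted to hepatocytes: Saa3 is made by macrophages and other extrahepatic cells, neutrophils store the Lcn2 protein in their granules, and myeloid cells also make haptoglobin.

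Alb is not a gene of leukocytes, and it was read in all 12 libraries of this CD45 selection at 77.4 to 1601 FPKM (fragments per length of transcript and per mapped fragments of the library, a level that can be compared between genes). All 27 hepatocyte markers passed the filter on low values, which was at least 1 FPKM in at least 3 of 12 libraries. Their summed level was 529 to 2508 FPKM in control, 1032 to 1296 in polyIC, 234 to 964 in antiPDL1 and 118 to 215 in combination. Ptprc, which encodes CD45, lay at 206 to 261, 371 to 416, 268 to 340 and 381 to 487 FPKM in the same order. These are bulk libraries, so fewer cells of a type and less RNA per cell cannot be told apart. The libraries had total FPKM of 476111 to 677535, and the relative depth estimated from low values ran from 0.482 to 1. Libraries of 1 group differed in their cell markers: control replicate 2 had Kupffer cell markers at a sum of 2074 FPKM against 8749 and 9582, and antiPDL1 replicate 2 had monocyte markers at 1839 against 6463 and 7402. In antiPDL1, replicate 1 had neutrophil markers at 5516 against 1855 and 1649, and replicate 0 had T cell markers at 1852 against 747 and 658. Values without control replicate 2 and antiPDL1 replicate 2 are given beside the results they move.

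The promoters of Saa1 and Saa2 were nearly the same sequence, and these genes also had the most similar levels of all pairs among the 7 genes. RefSeq sequences (build GRCm38.p6, from 250 bases before to 50 after the gene start) matched 5 of the 7 symbols. The windows are chr4:63362199-63362498 on the plus strand for Orm2, chr7:46742931-46743230 on the minus strand for Saa1, chr7:46751583-46751882 on the plus strand for Saa2, chr7:46715627-46715926 on the minus strand for Saa3 and chr2:32387690-32387989 on the minus strand for Lcn2. They are printed 5′ to 3′ along the gene to show what the promoters of genes that move together, or do not, share. Capitals mark a match to TTGCNNAA, a pattern of the C/EBP factors, on either strand.
Orm2: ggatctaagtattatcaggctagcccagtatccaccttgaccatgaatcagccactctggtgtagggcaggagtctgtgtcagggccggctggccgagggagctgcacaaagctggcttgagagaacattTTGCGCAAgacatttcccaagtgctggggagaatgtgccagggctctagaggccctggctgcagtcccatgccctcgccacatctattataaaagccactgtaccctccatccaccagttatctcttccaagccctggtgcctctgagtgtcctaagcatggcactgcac
Saa1: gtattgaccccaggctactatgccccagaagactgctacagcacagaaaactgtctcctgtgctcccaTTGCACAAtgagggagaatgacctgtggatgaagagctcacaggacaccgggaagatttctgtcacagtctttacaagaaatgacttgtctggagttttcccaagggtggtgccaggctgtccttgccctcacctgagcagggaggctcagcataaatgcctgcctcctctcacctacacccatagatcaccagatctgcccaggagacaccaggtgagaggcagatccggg
Saa2: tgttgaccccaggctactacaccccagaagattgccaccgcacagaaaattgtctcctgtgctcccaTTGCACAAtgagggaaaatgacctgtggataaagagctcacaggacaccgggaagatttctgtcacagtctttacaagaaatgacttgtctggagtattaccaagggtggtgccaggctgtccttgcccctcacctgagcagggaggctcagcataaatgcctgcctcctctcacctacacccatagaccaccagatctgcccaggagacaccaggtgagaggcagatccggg
Saa3: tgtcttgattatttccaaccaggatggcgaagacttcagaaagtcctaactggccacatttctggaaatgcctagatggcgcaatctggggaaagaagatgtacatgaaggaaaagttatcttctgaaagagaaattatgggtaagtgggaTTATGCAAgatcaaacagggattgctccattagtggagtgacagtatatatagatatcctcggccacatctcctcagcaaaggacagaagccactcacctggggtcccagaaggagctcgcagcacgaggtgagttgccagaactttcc
Lcn2: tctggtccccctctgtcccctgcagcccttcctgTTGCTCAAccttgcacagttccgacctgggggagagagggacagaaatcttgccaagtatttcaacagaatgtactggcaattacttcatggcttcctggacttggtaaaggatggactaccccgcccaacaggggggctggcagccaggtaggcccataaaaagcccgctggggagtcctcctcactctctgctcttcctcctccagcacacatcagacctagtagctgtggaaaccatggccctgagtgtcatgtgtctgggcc
Saa1 and Saa2 were identical at 287 of 301 aligned positions (95.3%), whereas the other pairs among these 5 windows had 45.7% to 51.3%. Saa1 carried TTGCACAA at -182 to -175 from the gene start and Saa2 the same letters at -183 to -176. Orm2 had the palindromic TTGCGCAA at -120 to -113 and Lcn2 had TTGCTCAA at -216 to -209, while the Saa3 match, TTATGCAA at -99 to -92, lies on the opposite strand. All 5 windows held a match, as did the Alb promoter (TTTGGCAA at -94 to -87), against 10.8% of 32544 promoters of the same length. The pattern TTCNNNGAA of STAT factors, found in 8.33% of promoters, and the NF-kappaB consensus, found in 4.53%, had no match in these 5 windows. TATAAA, found in 13.6%, was present in Orm2, at -33 to -28. Both strands were searched. The motifs were chosen after the sequences had been seen, overlaps between motifs were allowed, and a match is a string of letters rather than a shown binding site.

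Orosomucoid transcripts were highest after polyIC alone. Orm1 was at 38.1, 25.9 and 12.8 FPKM in control, 58.0, 61.8 and 41.6 in polyIC, 17.6, 7.67 and 23.3 under antiPDL1 and 3.93, 10.2 and 12.3 in combination. All polyIC libraries lay above all others, and all combination libraries lay below all controls. The mean was 25.6 ± 12.6 FPKM (SD, n = 3) in control and 53.8 ± 10.7 in polyIC, a 2.10-fold difference, and 8.81 ± 4.36 in combination, 2.90-fold under control. On the log2(FPKM + 1) scale Orm1 was 1.15 ± 0.48 (SE) higher in polyIC than in control and 1.43 lower in combination (log2 difference -1.43).

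Orm2, a near copy of Orm1, was close to the lower end of detection in every group except polyIC alone. It was at 0.679, 0.703 and 0.329 FPKM in control, 11.2, 9.19 and 6.16 in polyIC, 1.35, 0.796 and 0.738 under antiPDL1 and 1.12, 1.71 and 1.25 in combination. Groups did not overlap between polyIC and any other group, and combination stayed above control in 3 of 3 libraries. The ratio of the means was 15.5 for polyIC over control, the highest of the 7 genes in that comparison, and 6.49 for polyIC over combination. Orm2 reached 1 FPKM in 7 of 12 libraries and in no control, so it passed the filter through the groups in which it was high. Transcript models of Orm1 and Orm2 share 20.4% of their 50-base windows, and reads from those stretches may have been divided between them.

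Saa1 and Saa2, the serum amyloids of the liver, had parallel levels from library to library. Saa1 was at 6.33, 11.3 and 3.70 FPKM in control, 33.2, 29.6 and 12.5 in polyIC, 16.7, 5.32 and 2.99 under antiPDL1 and 1.62, 4.65 and 4.34 in combination. Saa2 was at 4.57, 6.99 and 2.63 FPKM in control, 41.8, 20.8 and 6.53 in polyIC, 14.2, 4.10 and 1.99 under antiPDL1 and 1.31, 3.76 and 3.19 in combination. Saa1 separated polyIC from control, whereas for Saa2 the lowest polyIC library (replicate 2) fell just under the highest control. Within antiPDL1 both genes were high in replicate 0 alone.

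Mean Saa1 was 7.12 ± 3.88 FPKM in control, 25.1 ± 11.1 in polyIC and 3.54 ± 1.67 in combination. For Saa2 the means were 4.73 ± 2.19, 23.0 ± 17.7 and 2.76 ± 1.28. The ratio of polyIC over combination was 7.10 for Saa1 and 8.36 for Saa2. Their transcripts share 74 windows of 50 bases, 13.2% of those of Saa1 and 11.2% of those of Saa2, and how reads from those windows were divided between the genes was not tested.

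Saa3, the extrahepatic serum amyloid, was high in both groups given polyIC. It was at 2.21, 4.25 and 16.4 FPKM in control, 108, 69.6 and 75.4 in polyIC, 121, 36.9 and 6.72 under antiPDL1 and 70.6, 216 and 119 in combination. Both polyIC-treated groups lay above all controls and overlapped each other. AntiPDL1 libraries spread widely, replicate 2 lying below the highest control. The mean was 7.63 ± 7.69 FPKM in control and 135 ± 74.1 in combination, a ratio of 17.7, and the log2 difference was 4.21 ± 0.87 (SE). Without control replicate 2 and antiPDL1 replicate 2, antiPDL1 also lay above control, and its log2 difference went from 2.31 to 4.05.

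Lcn2, whose product withholds iron from bacteria by binding their siderophores, was highest in polyIC and intermediate in the combination. It was at 12.5, 18.9 and 32.3 FPKM in control, 141, 87.9 and 76.7 in polyIC, 17.0, 34.3 and 25.5 under antiPDL1 and 41.8, 48.8 and 64.1 in combination. The polyIC libraries lay above all others, the combination libraries lay above all controls and all antiPDL1 libraries, and the control and antiPDL1 groups overlapped. Means were 21.2 ± 10.1, 102 ± 34.2, 25.6 ± 8.63 and 51.6 ± 11.4 FPKM in the same order, a ratio of 4.80 for polyIC over control and 2.43 for combination over control.

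Hp was the most abundant of the 7 genes in every group by its mean. Its level was 122, 155 and 113 FPKM in control, 158, 225 and 127 in polyIC, 294, 261 and 100 under antiPDL1 and 193, 257 and 253 in combination. Combination libraries lay above all controls, polyIC overlapped control, and antiPDL1 replicate 2 was the lowest of the 12 libraries. With control replicate 2 and antiPDL1 replicate 2 left out, antiPDL1 lay above control and above combination, and the log2 difference of combination from antiPDL1 went from 0.23 to -0.25.

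Alb, the negative acute phase gene used for contrast, took another course. It was at 1601, 1315 and 495 FPKM in control, 640, 934 and 978 in polyIC, 276, 124 and 1000 under antiPDL1 and 77.4, 121 and 144 in combination. The polyIC and control groups overlapped, and combination lay below both, with a mean 9.96-fold under control. Without control replicate 2 and antiPDL1 replicate 2, Alb lay below control without overlap in polyIC (log2 difference -0.79, from -0.28) and in antiPDL1 (-2.97, from -1.64). In combination the mean of Hp (234 ± 35.9 FPKM) and that of Saa3 exceeded the mean of Alb (114), although the ranges of Saa3 and Alb overlapped. In control the order of means was Alb, Hp, Orm1, Lcn2, Saa3, Saa1, Saa2 and Orm2, and neighbours from Orm1 to Saa2 overlapped.

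**Figure D1:**
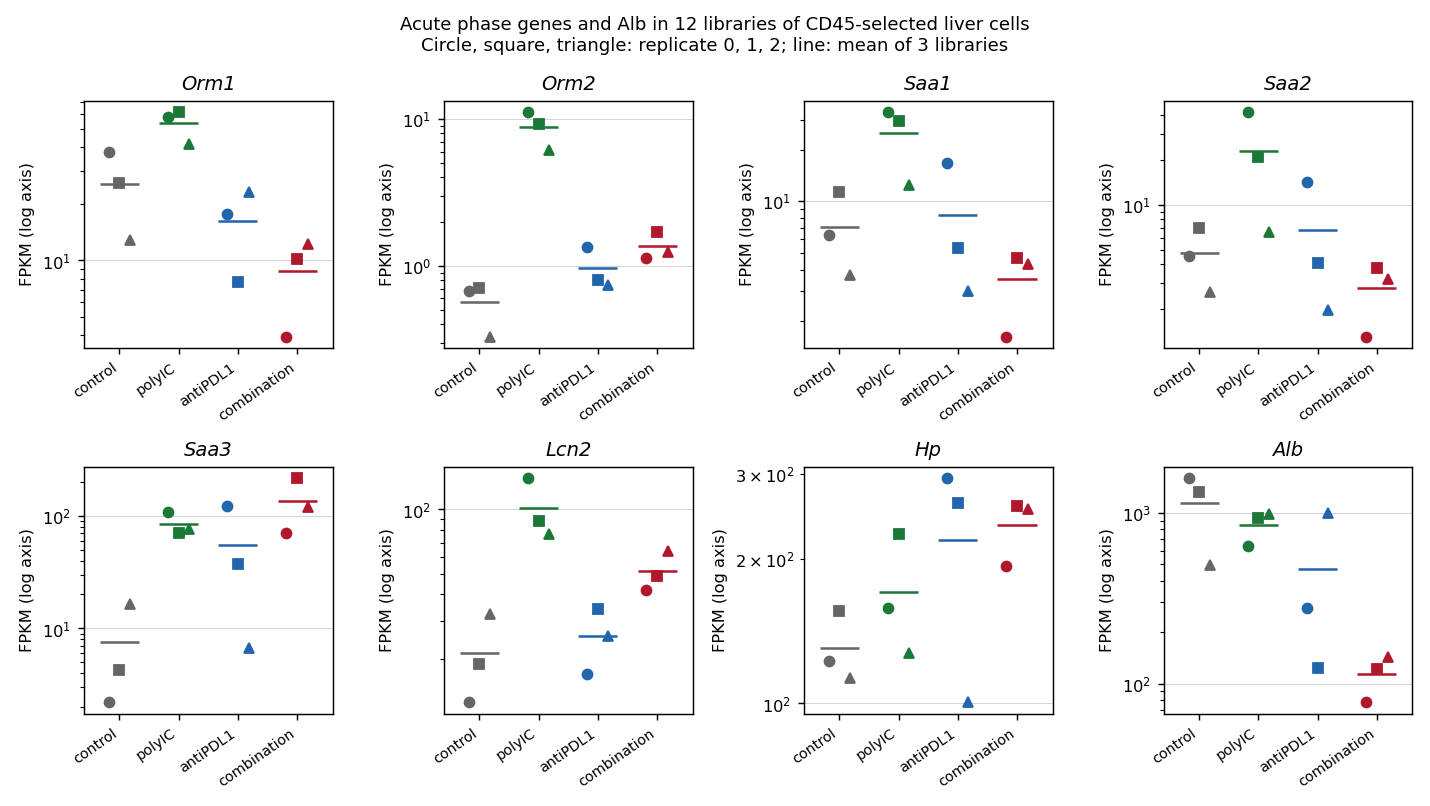
Level of each of the 7 acute phase genes and Alb in FPKM (log axis, with its own range in each panel) in the 12 libraries; points are libraries and lines are means of 3. Orm1, Orm2, Saa1 and Saa2 peak in polyIC and are low in combination, Saa3 stays high in combination, and Alb lies at 77.4 to 144 FPKM there.

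Counted over the 7 genes, polyIC lay wholly above control for 5 (Orm1, Orm2, Saa1, Saa3 and Lcn2), and Saa2 and Hp overlapped. Of all 11991 genes tested, 16.2% were wholly higher and 12.4% wholly lower in that comparison. All 7 log2 differences were above 0, with a median of 1.81 against -0.01 over all genes. Since the genes were picked with these values known, the count stands as a description.

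AntiPDL1 lay above control for Orm2 alone and below it for none, the other 6 overlapping, against 4.61% higher and 7.89% lower among all genes. Orm2 reached 1 FPKM in 1 antiPDL1 library and 0 controls, so nothing is read from that separation. Combination lay above control for 4 genes (Orm2, Saa3, Lcn2 and Hp) and below it for Orm1, with 25.6% and 20.3% of all genes doing so. Compared with polyIC alone, combination was lower for 5 genes (Orm1, Orm2, Saa1, Saa2 and Lcn2) and higher for none, beside 16.1% lower and 13.3% higher over all genes. Against antiPDL1, combination was higher for Lcn2 alone, with 8.28% of all genes higher and 12.1% lower. For Orm1, Saa1 and Saa2 every polyIC library lay above the control mean and every combination library below the antiPDL1 mean, as for 1.33% of all genes.

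Differences from polyIC were similar in size for 4 of the genes. On the log2 scale combination minus polyIC was -2.58 for Orm1, -2.03 for Orm2, -2.49 for Saa1 and -2.42 for Saa2, compared with -0.94 for Lcn2, 0.55 for Saa3 and 0.49 for Hp. The polyIC effect with the antibody minus that without it was negative for all 7, from -2.59 ± 0.94 (SE) for Saa2 to -0.12 ± 0.52 for Hp. For Orm2 it was -2.35 ± 0.30. The comparisons with control share the control libraries, and both polyIC comparisons share the polyIC libraries.

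Without control replicate 2 and antiPDL1 replicate 2, fewer libraries are compared and more genes separate. The same 5 genes then lay above control in polyIC, beside 24.3% of all genes higher and 30.3% lower. In combination against control, Saa1 and Saa2 joined Orm1 as wholly lower and the same 4 genes were higher, beside 30.8% lower and 32% higher over all genes. For antiPDL1 against control, Saa3 and Hp joined Orm2 as higher and Orm1 became wholly lower (log2 difference -1.35, from -0.63 with all libraries), beside 38.1% higher and 30.3% lower. Against antiPDL1, combination was lower for Saa1, Saa2 and Hp and higher for Lcn2, beside 20% lower and 10.6% higher.

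Relative to Alb in the same library, 6 of the 7 genes were higher in polyIC than in control without overlap, Hp being the exception, as were 4.05% of the 11990 genes tested other than Alb. All 7 were higher in combination than in control, but so were 90.9% of all genes, Alb being low in that group. Orm1 per 1000 FPKM of Alb was 23.8, 19.7 and 25.9 FPKM in control, 90.6, 66.2 and 42.6 in polyIC, 63.8, 61.9 and 23.3 under antiPDL1 and 50.7, 84.5 and 85.4 in combination. Orm1 was thus lower in combination than in control by level and higher by its ratio to Alb. Mean ratios of Orm2 were 0.541, 11.2, 4.02 and 12.4 FPKM per 1000 FPKM of Alb in control, polyIC, antiPDL1 and combination.

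Ratios to Alb did not separate polyIC from combination for Orm1, Orm2, Saa1 and Saa2, whereas 94.3% of all genes had wholly higher ratios in combination. The mean ratio of Saa1 was 32.1 in polyIC and 29.9 in combination, and that of Saa2 was 31.4 and 23.4. For Saa3, Lcn2 and Hp the ratios in combination lay above those in polyIC in every library, as they did for most genes. Mean Saa3 per 1000 FPKM of Alb was 12.6 in control, 107 in polyIC, 247 under antiPDL1 and 1175 in combination. For Lcn2 these means were 29.1, 131, 121 and 463, and for Hp 141, 206, 1091 and 2125. In antiPDL1 the ratios of replicate 2 were the lowest of the group for all 7 genes, and Orm2 alone lay wholly above control, against 2.19% of all genes. Nothing is read from this either, Orm2 being near the lower end of detection in both groups. In combination against antiPDL1 the ratios of Orm2, Saa3 and Lcn2 were wholly higher, against 16.8%. Without control replicate 2 and antiPDL1 replicate 2, all 7 ratios lay above control both in polyIC, Hp included, and in antiPDL1, against 59.3% and 94.9% of all genes. The ratios of Saa1 and Saa2 were then wholly lower in combination than in antiPDL1, against 1.48% of all genes, and those of Orm2, Saa3 and Lcn2 higher, against 16.9%. A ratio shows unequal levels within a library and moves with Alb as well as with the acute phase gene.

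**Figure D2:**
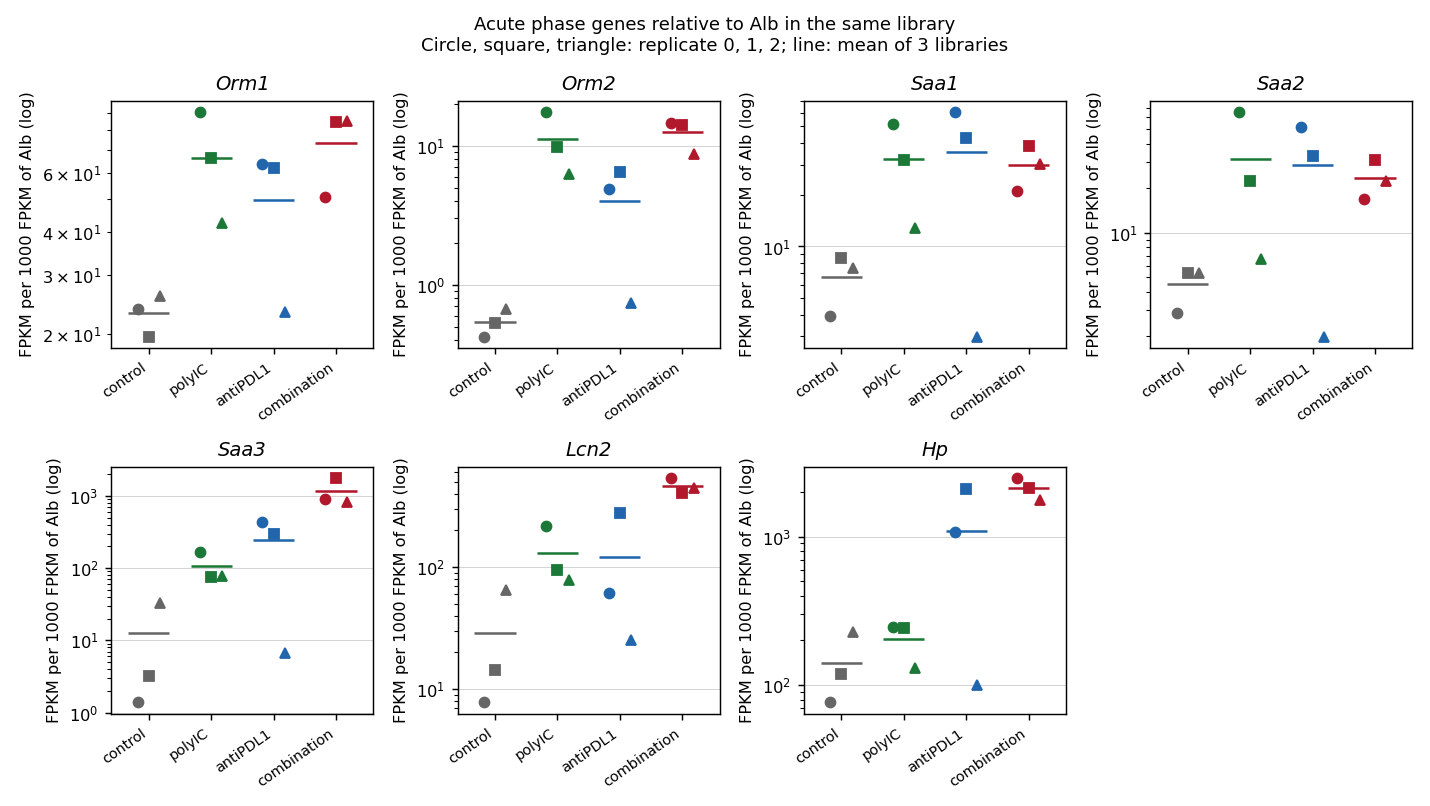
FPKM of each acute phase gene per 1000 FPKM of Alb in the same library (log axis, own range in each panel); points are libraries and lines are means of 3. Ratios in combination lie above every control for all 7 genes, as for 90.9% of all genes, and for Saa3, Lcn2 and Hp also above every polyIC library.

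Other acute phase genes had few calls in polyIC. Of a wider list of 37 genes, 35 were tested, since Orm3 and A2m were under 1 FPKM in all libraries. With limma and a Benjamini-Hochberg adjusted p under 0.05, none rose and 1 fell in polyIC (at an unadjusted p under 0.05, 1 was higher and 7 were lower), against 2.47% and 1.18% of all genes. The gene that fell was Mt1, a metallothionein that binds zinc, with a log2 difference of -1.33 ± 0.29 (SE) and an adjusted p of 0.031. The median log2 difference was 0.04 over the list and -0.01 over all genes, with 20 of the 35 above 0 and 15 below. The 7 genes were picked with their values known, so no contrast between them and the list is drawn.

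Some hepatocyte products of the wider list had values near those of control in polyIC, and others were lower. The fibrinogen chains had log2 differences of 0.09 (Fga), -0.21 (Fgb) and 0.04 (Fgg), and C-reactive protein (Crp) had 0.19. While 20 genes of the list lay above 0, the 15 below included Serpina1b (-1.13), Serpina1a (-0.90) and Serpina1e (-0.90), which were not called. Hamp, the iron hormone hepcidin, had the highest log2 difference of the list in polyIC, 1.75, with an adjusted p of 0.196 in limma. Its levels were 64.1, 22.4 and 9.73 FPKM in control and 123, 80.9 and 61.0 in polyIC. Without control replicate 2 and antiPDL1 replicate 2, 9 of the 35 genes fell in polyIC and none rose. Calls over all 11991 genes increased as well in that setting, to 1671 falls and 1216 rises from 141 and 296.

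In the combination the wider list fell. Compared with control, 27 of 35 fell and 1 rose, against 16.3% and 13.1% of all genes, and the median log2 difference was -1.71 against 0.05. Serpina1b, an alpha-1-antitrypsin gene, fell from 154, 160 and 98.0 FPKM to 6.62, 7.72 and 8.28, a log2 difference of -3.99 ± 0.43 with a limma adjusted p of 0.00077. Serpina1e (-3.57) and Serpina1a (-3.33), its close paralogs that may share reads with it, and the fibrinogen chains (-2.46 to -2.79) fell as well. Cfb, complement factor B, was the gene that rose, from 89.1, 121 and 32.6 FPKM to 241, 274 and 209 (1.75 ± 0.52, adjusted p of 0.027). The count went to 18 without control replicate 0 and to 0 with the mean of the hepatocyte markers as a covariate, which took the calls over all genes from 3527 to 6. Cfb was no longer called without control replicate 0, without control replicate 2 or without any 1 of the combination libraries.

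Compared with polyIC alone, 18 of the 35 fell in combination and none rose (25 and 1 at an unadjusted p under 0.05), against 1.07% and 0.167% of all genes. The largest falls were in Serpina3k (-3.19), Serpina1c (-2.87) and Serpina1b (-2.86), and Hpx, the haem carrier haemopexin, fell from 131, 177 and 161 FPKM to between 13.8 and 38.6 (-2.50, limma adjusted p of 0.038). This count depended on the setting, with none called under quantile normalization, under the replicate block, with the hepatocyte covariate or without any 1 of the 6 libraries compared, 1 called without control replicate 1 or without the filter, and 2 under median-of-ratios rescaling. It was 27 with only the groups compared, with array quality weights or without control replicate 2 and antiPDL1 replicate 2, 22 with the neutrophil covariate and 21 with a pseudocount of 0.1. Under quantile normalization the calls over all genes split into 4 higher and 2 lower, compared with 20 and 128.

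No gene of the wider list was called by limma in antiPDL1 against control, where 2 were higher and 16 lower at an unadjusted p under 0.05. Over all genes 0% rose and 0.208% fell. Leaving out antiPDL1 replicate 2 gave 3 rises and 12 falls, with 2086 calls over all genes instead of 25. Leaving out control replicate 2 gave 6 falls. Combination against antiPDL1 had none called either (0 and 18 unadjusted), against 0.1% and 0.025% over all genes. The interaction had none (1 and 7 unadjusted), against 0.00834% and 0.0167%.

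The 9 negative acute phase genes, Alb among them, all fell in combination against control, beside 16.3% of all genes. Their median log2 difference was -3.19. Rbp4, the retinol carrier, fell from 157, 175 and 92.4 FPKM to 3.45, 8.18 and 8.15 (-4.25 ± 0.51, limma adjusted p of 0.00098), followed by transferrin (Trf, -3.70) and Apoa1 (-3.53). Compared with polyIC, 7 of 9 fell, led by Rbp4 (-3.11) and Ahsg (-3.02), with Apoa2 next, beside 1.07% of all genes. Calls in that comparison depended on the setting. Over all genes there were 148, but 6 under quantile normalization and 7 with the replicate block. In polyIC against control none was called, with 0 higher and 2 lower at an unadjusted p under 0.05, and in antiPDL1 none was called, with 0 higher and 6 lower. None was called in combination against antiPDL1 (0 and 7 unadjusted) or in the interaction (0 and 0). In the combination, then, 27 positive and 9 negative acute phase genes fell.

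**Figure D3:**
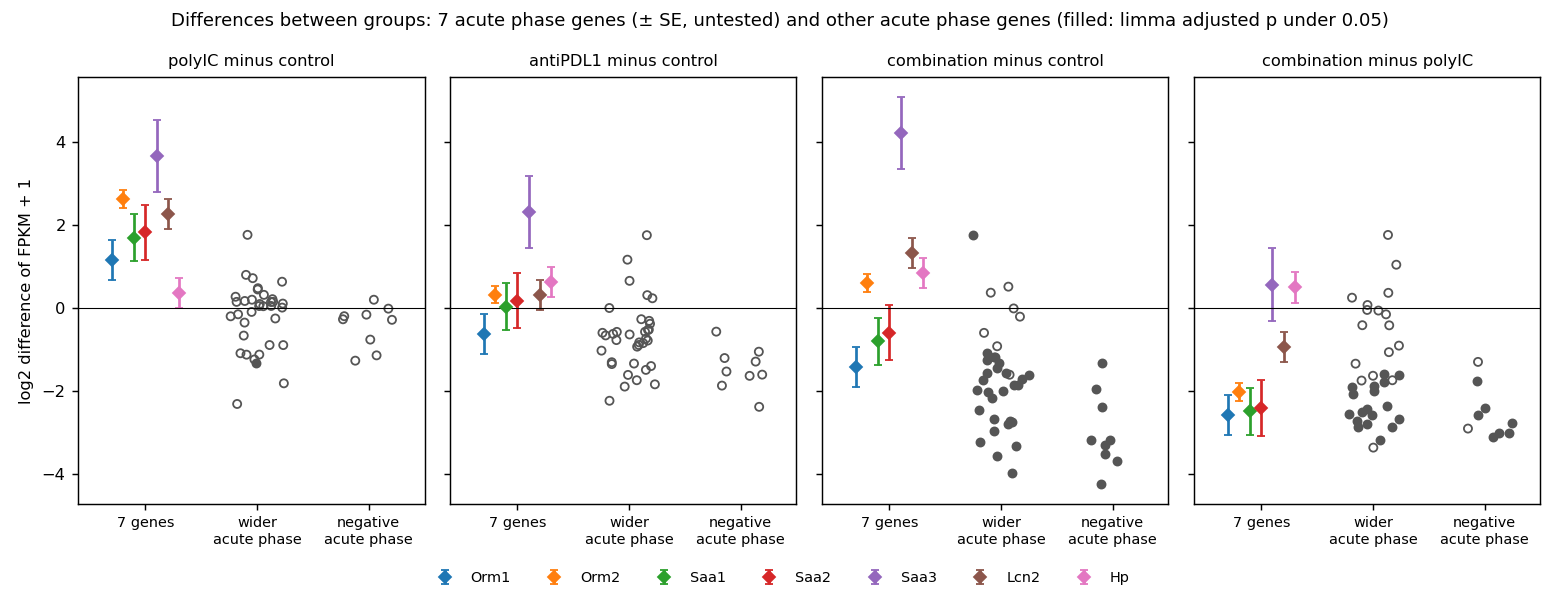
Log2 difference of FPKM + 1 between groups for the 7 genes (diamonds, ± SE, no test) and for the other acute phase genes (circles, filled where limma gave an adjusted p under 0.05) in 4 comparisons. In polyIC the 7 genes, picked with these values known, lie above 0, and the median of the wider list is 0.04. Against control, 27 of 35 wider list genes and 9 of 9 negative acute phase genes fell in combination, beside 16.3% of all genes.

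Of the cytokines and factors upstream of the acute phase, none passed the test in polyIC. Of 21 tested genes of a list of 25, limma called none in polyIC (0 higher and 5 lower at an unadjusted p under 0.05). Il6, the main inducer, was at 2.93, 1.71 and 0.893 FPKM in control and 0.243, 0.653 and 0.357 in polyIC, and Il1b was at 264, 124 and 105 in control and 53.3, 104 and 25.8 in polyIC. Both genes lay lower in polyIC than in control without overlap, as did 12.4% of all genes, with adjusted p-values of 0.076 and 0.102 in limma. For Il1b the closest libraries of the groups were at 105 and 104 FPKM. In combination against control 3 rose (14.3%) and 4 fell (19.0%), shares near those over all genes (13.1% and 16.3%). Socs3, a STAT3 target that inhibits the pathway, rose from 8.05, 11.5 and 11.1 FPKM to 33.7, 67.4 and 34.7 (1.98 ± 0.45, limma adjusted p of 0.0093), and Bcl3 (1.12) and Stat3 (0.72) rose too. Il1a (-1.83), Il6 (-1.13), the IL-1 receptor Il1r1 (-0.98) and the IL-6 receptor Il6ra (-0.73) fell. Il6 was near the lower end of detection, under the 1 FPKM of the filter in every polyIC library. It passed through groups where it was higher, control among them. Nothing is therefore read from its lower values in polyIC or from its being among the 4 that fell. None was called in antiPDL1 (0 and 0 unadjusted), in combination against polyIC (6 and 0), in combination against antiPDL1 (1 and 4) or in the interaction (1 and 0).

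Among receptors and partners of the 7 proteins, 16 of 19 were tested. In combination against control 1 rose (6.25%) and 6 fell (37.5%), beside 13.1% and 16.3% of all genes, and 9 did not pass the test. Cd163, the scavenger receptor that takes up haptoglobin bound to haemoglobin, fell from 276, 188 and 51.2 FPKM to 3.43, 0.874 and 1.13 (-5.75 ± 0.90, limma adjusted p of 0.0026), and the beta-globin genes Hbb-b1 (-2.63) and Hbb-b2 (-2.09), near copies that may share reads, fell as well. Fpr2, a formyl peptide receptor that binds serum amyloid A, rose from 40.1, 52.0 and 26.1 FPKM to 92.3, 84.7 and 84.4 (1.18 ± 0.38, adjusted p of 0.038). The scavenger receptor Cd36, the lipocalin receptor Slc22a17 and P2rx7 also fell. None was called in polyIC (0 higher and 4 lower unadjusted), in antiPDL1 (2 and 3), in combination against polyIC (2 and 4), in combination against antiPDL1 (0 and 5) or in the interaction (0 and 2).

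The 7 genes resembled different sets of genes across the 12 libraries. Likeness was measured as Pearson's r of log2(FPKM + 1), a description over libraries that share their group structure. Orm1 was most like Hamp (r = 0.974) and Cyp2c70 (0.969), a cytochrome P450 of the liver that hydroxylates bile acids, and its r with Alb was 0.849. Lcn2 was most like Mmp8 (0.984), Camp (0.966) and Ltf (0.952), which encode proteins of neutrophil granules, and its r with Alb was -0.16.

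Saa1 and Saa2 were each other's nearest gene among 11990 (r = 0.975). Beyond the 7 genes, Saa1 was most like Nit2 (0.823), Snhg12 (0.809) and Cd200r1 (0.806), and Saa2 most like Oxnad1 (0.814), Nit2 (0.794) and Snhg12 (0.785). Orm2 was closest to Rasl12 (0.931), Tesk2 (0.927) and Tsga10 (0.924), and its r was 0.814 with Lcn2 and 0.225 with Alb. Saa3 was most like Arl6ip5 (0.989), Dbf4 (0.981) and Vcpkmt (0.980), and Hp most like Snrnp27 (0.976), Ndufaf2 (0.962) and Polr2j (0.959). Against Alb, Saa3 had r = -0.641 and Hp had r = -0.686.

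**Figure D4:**
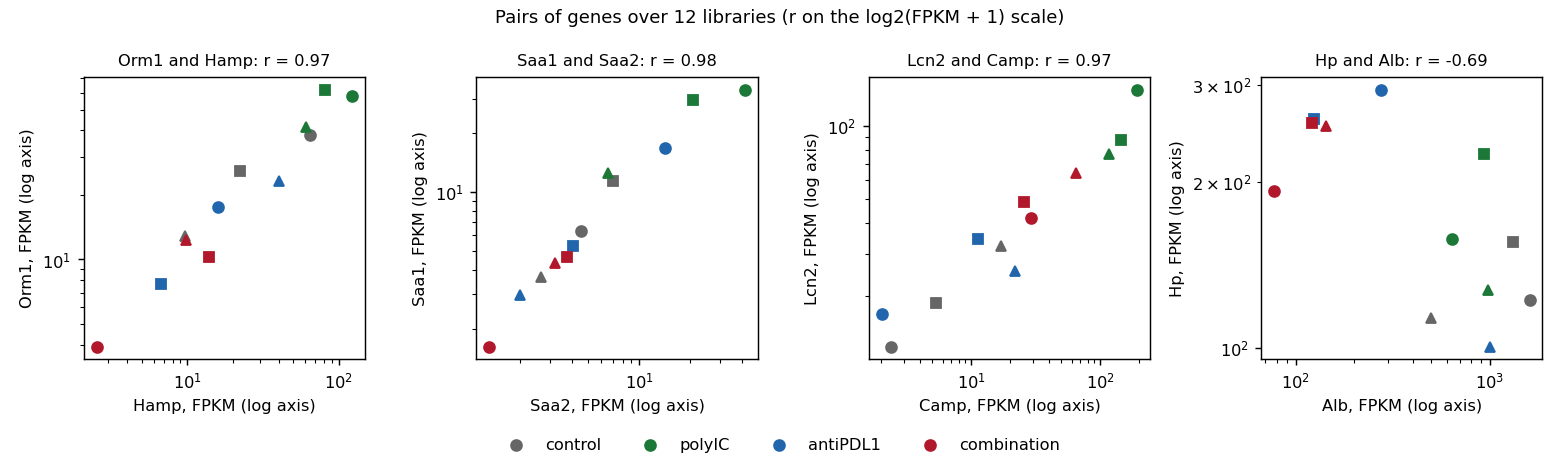
FPKM of 4 pairs of genes in the 12 libraries (log axes), coloured by group, with Pearson's r on the log2(FPKM + 1) scale. Orm1 follows Hamp, Saa1 follows Saa2 and Lcn2 follows Camp across all groups, whereas Hp is highest where Alb is low (r = -0.69).

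Markers of other cells moved beside these genes. Of 17 neutrophil markers tested, 9 rose in polyIC and 6 in combination against control, beside 2.47% and 13.1% of all genes, and none fell (9 higher and 1 lower, and 6 and 0, at an unadjusted p under 0.05). The marker that was lower in polyIC was Csf3r, the G-CSF receptor (-0.88, limma adjusted p of 0.124), and Cxcr2 had -0.52. Camp, a cathelicidin of neutrophil granules, was at 2.37 to 17.2 FPKM in control, 117 to 194 in polyIC, 2.02 to 21.9 in antiPDL1 and 25.5 to 65.0 in combination, with log2 differences from control of 4.35 ± 0.73 in polyIC (limma adjusted p of 0.013) and 2.36 in combination. Ngp (4.36) and Ltf (3.84) rose with it in polyIC. Elane and Mpo, of the primary granules, reached 2.39 to 4.51 and 1.82 to 6.25 FPKM in polyIC and stayed at or under 0.803 FPKM in the other groups. They passed the low value filter through the polyIC group, so nothing is read from their being among the 9 that rose and the 2 that fell in combination against polyIC. Fcnb and Prtn3, also among the 9, reached 1 FPKM in 3 polyIC libraries and 0 controls. Nothing is read from their rises against control either. The summed neutrophil markers ranged over 1037 to 3206 FPKM in control, 3430 to 5787 in polyIC, 1649 to 5516 in antiPDL1 and 2021 to 5742 in combination. Their part in the level of Lcn2 was not tested.

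Hepatocyte markers fell in the combination, where Orm1 and Alb also lay below control and Saa1 and Saa2 overlapped it. There 23 of 27 fell against control (median log2 difference -2.43), led by Fabp1 (-3.57), Ambp (-3.31) and Mup3 (-3.18), beside 16.3% of all genes. Against polyIC 7 of 27 fell in combination, beside 1.07% of all genes. In polyIC and in antiPDL1 against control none was called by limma (0 higher and 2 lower, and 0 and 8, unadjusted). With the mean of these markers as a covariate, the log2 difference of Orm1 between combination and control went from -1.43 to 0.45. The same covariate took the calls over all genes in that comparison from 3527 to 6, so the shift is not particular to Orm1. The summed markers were lower in every combination library than in every control, so the covariate and the group cannot be told apart. The part of these markers in the result was not tested.

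Myeloid markers lay beside Saa3 and Hp. Monocyte markers summed to 1546 to 2576 FPKM in control, 3086 to 3741 in polyIC, 1839 to 7402 in antiPDL1 and 4095 to 6499 in combination. Against control, 3 of 12 rose in polyIC and 6 in combination, beside 2.47% and 13.1% of all genes. The antiPDL1 library lowest in this sum, replicate 2, was also lowest in Saa3 and Hp within its group. Of 10 Kupffer cell markers, 8 fell in combination against control, Clec4f by the most (-6.65), beside 16.3% of all genes. Of 5 tested epithelial markers, 3 fell in polyIC, 3 under antiPDL1 and 4 in combination against control. Over all genes 1.18%, 0.208% and 16.3% fell in the same order. Epcam went the other way in polyIC (0.70, limma adjusted p of 0.059). How far these cells contributed to Saa3 and Hp was not tested.

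**Figure D5:**
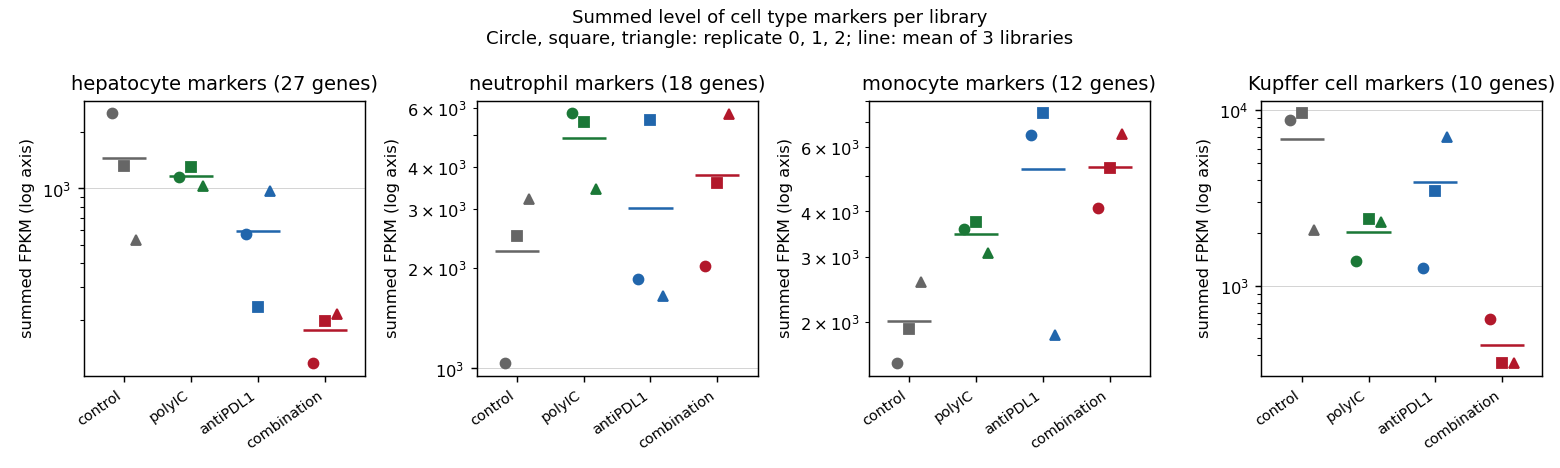
Summed FPKM of 4 lists of cell type markers in each library (log axis, own range in each panel); points are libraries and lines are means of 3. Hepatocyte markers are lowest in combination, at 118 to 215 FPKM, and neutrophil markers lie above every control in all 3 polyIC libraries.

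Other cell types gave these counts against control. They are to be read beside 16.3% of all genes falling and 13.1% rising in combination, and 2.47% rising in polyIC. Endothelial markers fell in combination for 10 of 12, stellate cell markers for 2 of 6 tested and B cell markers for 8 of 8. T cell markers rose for 3 of 11 in polyIC and 10 of 11 in combination, and NK cell markers for 4 of 7 and 1 of 7, the latter share (14.3%) near that over all genes. Alas2, the single erythroid marker tested, fell in combination, where Ptprc rose (0.90).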

How the data were processed

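The authors' deposited table gives 1 value per gene symbol and library. RNA of CD45+ liver cells, held with a PE-coupled antibody and PE microbeads, was sequenced from stranded mRNA libraries, per the labels' protocols. The values were read as FPKM, which the authors made with Cuffdiff on mm9, per the submitters' processing notes; the unit rests on the values, while the version, aligner and annotation are not given in these sources. Reads are not listed, so depth is known only relative to other libraries, from the steps between low values (2152 genes, 41 of 66 library pairs), and precision comes from the spread between libraries.

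The low value filter kept 11991 genes that reached 1 FPKM in 3 or more of 12 libraries, after 9 genes listed at 0 in whole groups but at 5 FPKM or more in every library of another group were left out as failed estimates. Group means of log2(FPKM + 1) were fitted over all 12 libraries in limma 3.58.1 (R 4.3.3) with its trend option and two-sided moderated tests, without other covariates. A fold change on this scale understates the change of low genes. The call was a Benjamini-Hochberg adjusted p under 0.05 over all genes, in 6 comparisons, and the code was tested on simulated data. Tables used Python 3.11.15, pandas 2.3.3, numpy 2.4.6, scipy 1.17.1 and matplotlib 3.10.9.

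The 7 genes and the lists of wider and negative acute phase genes, signalling genes, receptors and cell markers were chosen with earlier results of these data known. Beside the 7 genes and Alb, up to 3 members of a list with the largest rise and fall among those called were named, and for each of the 7 the 3 most alike genes, leaving out predicted genes and small RNAs; 1 gene that this rule names is not reported here. Other list members named (Fga, Fgb, Fgg, Crp, Hamp, Hpx, Il1b, Il6ra, Cd36, Slc22a17, P2rx7, Csf3r, Cxcr2, Fcnb, Prtn3 and Epcam) were picked for their role or to complete a count after their values were seen. With 3 libraries against 3, an exact permutation test could not give a p under 0.1 and was not used. Tried as alternatives were no filter or a mean of at least 5 FPKM, a pseudocount of 0.1, a replicate block, only the groups compared, median-of-ratios rescaling, quantile normalization, failed estimates kept, array quality weights, hepatocyte or neutrophil marker means as covariates, and leaving out libraries singly or control replicate 2 with antiPDL1 replicate 2. For ratios to Alb, for overlaps of groups and for the opposite sides of comparison groups, leaving out libraries was chosen after seeing the data.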

Additional observations from a re-analysis of the deposited data

Results flagged for a closer look

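For 3 genes every polyIC library lay above the control mean while every combination library lay below the antiPDL1 mean, so the groups given polyIC lay on opposite sides of their comparison groups without and with the PD-L1 antibody. The polyIC effect with the antibody minus that without it was -1.95 for Orm1, -2.52 for Saa1 and -2.59 for Saa2 on the log2(FPKM + 1) scale. Of all genes tested, 1.33% had this pattern. For Saa1 and Saa2 it rests on antiPDL1 replicate 0, without which the antiPDL1 means are 4.15 and 3.04 FPKM and the highest combination libraries lie above them. For Orm1 it held without any 1 of the 12 libraries. The genes were chosen with these values known, and the difference was not tested.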

How the results depend on the processing

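The log2 differences of the 7 genes and Alb moved by less than the spread between libraries in 1100 of 1138 alternatives. Many of these could not move a difference of group means, so the count overstates how stable the differences were. Such were changes of the filter, failed estimates kept, only the groups compared, the replicate block and leaving out a library outside the comparison. Orm1 in combination against control reversed to 0.45 with the hepatocyte covariate, as did Hgf, a stellate cell marker, to 0.23 from -1.11. Counts of calls moved more; the cause was not tested. For polyIC against control, 437 genes were called over all genes and 212 with a mean of at least 5 FPKM, 783 with quantile normalization, 3439 with array quality weights, 1010 with the hepatocyte covariate, 2 with the neutrophil covariate, 2887 with control replicate 2 and antiPDL1 replicate 2 left out together, and 44 to 1869 without single libraries. Its wider list had 1 call, and 2 with quantile normalization, 2 with median-of-ratios rescaling, 3 with only the groups compared, 10 with weights, 8 and 0 with the hepatocyte and neutrophil covariates, 9 with both libraries left out and 0 to 5 without single libraries.

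For antiPDL1 against control, 25 genes were called, and 139 with no filter, 5 with a mean of at least 5 FPKM, 2 with only the groups compared, 2585 with weights, 40 with failed estimates kept, 2 with the hepatocyte covariate, 3375 with both libraries left out and 1 to 2086 without single libraries. The wider list went from 0 to 25 with weights, 26 with both libraries left out and 0 to 15 without single libraries. For combination against control, 3527 were called, and 1963 with a mean of at least 5 FPKM, 6883 with weights, 6 and 1059 with the hepatocyte and neutrophil covariates and 1664 to 4504 without single libraries; its wider list had 28, and 0 and 9 with those covariates and 18 to 29 without single libraries.

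For combination against polyIC, 148 were called, and 344 with a pseudocount of 0.1, 26 with no filter, 77 with a mean of at least 5 FPKM, 6 with quantile normalization, 20 with median-of-ratios rescaling, 1344 with only the groups compared, 7 with the replicate block, 3654 with weights, 2 and 325 with the hepatocyte and neutrophil covariates, 1099 with both libraries left out and 2 to 528 without single libraries. Its wider list had 18, and 1 with no filter, 0 with quantile normalization, 2 with median-of-ratios rescaling, 0 with the replicate block, 0 with the hepatocyte covariate and 0 to 24 without single libraries. For combination against antiPDL1, 15 were called, and 31 with no filter, 6 with a mean of at least 5 FPKM, 1 with only the groups compared, 1 with the replicate block, 818 with weights, 3 and 8 with the covariates, 86 with both libraries left out and 0 to 330 without single libraries; the wider list went from 0 to 8 with weights and 0 to 2 without single libraries. The interaction had 3 calls, and 1 with a mean of at least 5 FPKM, 13 with weights, 12 with failed estimates kept, 1 with the neutrophil covariate, 9 with both libraries left out and 1 to 6 without single libraries, and its wider list had 0 to 0.

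Deviations of libraries with the same replicate number correlated at -0.284 to 0.310 (18 pairs), and those with different numbers at -0.303 to 0.372 (36 pairs). This gave no sign of pairing, but 3 libraries a group are too few to exclude it. The replicate block is given only here and beside the counts it changed. Of all calls, quantile normalization made 54.9% rises in combination against control, compared with 44.7%; in antiPDL1 against control 19.0% of calls were rises with it and 13.3% with median-of-ratios rescaling, compared with 0%; in combination against polyIC they were 66.7% and 30%, compared with 13.5%. Depth is known only in relative terms, so no limit from it is given for low genes such as Orm2 in control.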
